A study of Homo sapiens with 20 samples.

Results

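RNA levels of 7 surface proteins that mark plasma cells or serve as targets in multiple myeloma were followed across 20 RNA-seq libraries. The genes were CD38 (NCBI gene ID 952), SDC1 (6382, the protein CD138), GPRC5D (55507), FCRL5 (83416), NCAM1 (4684, the protein CD56), CADM1 (23705) and MUC1 (4582). They were taken by name, with earlier results of these data known, and each was found once among the 18305 genes of the table. The libraries came from AMO1, L363 and RPMI-8226, which are multiple myeloma cell lines, and from ARH-77, a B-lymphoblastoid line. The study lists resistant cells of ARH-77 beside those of the myeloma lines. Each line was profiled as its parental culture (WT) and as a derivative resistant to the proteasome inhibitor bortezomib (BtzR), and AMO1 and L363 also as a derivative resistant to the proteasome inhibitor carfilzomib (CfzR). This gave 10 groups of 2 biological replicates. Every culture had serum in its medium, and the resistant cells were kept in 90 nM of their drug, so that the presence of drug and the resistant state cannot be told apart. Each resistant group is 1 evolved derivative of its line. The replicates are therefore cultures of the same derivative and carry no information on how another derivative would behave.

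A plasma cell is the antibody-secreting end stage of the B cell, and its malignant counterpart in the bone marrow is multiple myeloma. CD38 is an ectoenzyme that consumes NAD and the target of the antibodies daratumumab and isatuximab. SDC1 is a transmembrane heparan sulfate proteoglycan that binds growth factors and matrix and is the usual flow cytometry marker of plasma cells. GPRC5D is an orphan receptor and FCRL5 a receptor for immunoglobulin G of the Fc receptor-like family, and both are targets of antibodies or CAR-T cells in this disease. NCAM1 and CADM1 are adhesion molecules of the immunoglobulin superfamily, and MUC1 is a transmembrane mucin. Because the RNA came from bulk cultures, fewer cells that express a gene and less RNA per cell cannot be told apart.

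Values are FPKM, fragments per kilobase of transcript scaled to the mapped fragments of each library, so levels of different genes can be set side by side per unit of length. The summed FPKM of a library ranged from 457317 to 494850, and 10455 to 11023 genes reached 1 FPKM. Counts of reads were not used here, so the depth behind each value is unknown, and a gene at 0 is only listed at 0. Of 10 plasma cell markers, 8 or 9 were at 1 FPKM or more in both libraries of every group, and their summed level was 1681 to 9249 FPKM in libraries of the myeloma lines and 381 to 433 FPKM in ARH-77. The 12 B cell markers all reached 1 FPKM in ARH-77, with sums of 778 to 1043 FPKM, against 7.77 to 74.2 FPKM in the myeloma lines. Stromal markers summed to at most 1.79 FPKM and myeloid markers to at most 8.56 FPKM in every library. Before any result, the libraries labelled AMO1 CfzR have to be set apart. Correlations were taken on log2(FPKM + 1) over the 13089 genes that averaged 1 FPKM or more in some group. These libraries correlated with the L363 libraries at r = 0.986 to 0.992, the range seen between replicates (0.986 to 0.998). With the AMO1 WT and BtzR libraries they correlated at r = 0.878 to 0.883, whereas AMO1 WT and AMO1 BtzR correlated at 0.945 to 0.950. They are called the libraries labelled AMO1 CfzR here, and are compared with both parental lines.

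For 5 of the 7 genes the start of the gene was given by RefSeq on GRCh38.p14. Printed here are the windows from 250 bases before to 50 bases after the start of CD38, GPRC5D and MUC1, because these are the genes with a window that were called lower in RPMI-8226 BtzR. SDC1 and FCRL5 also have windows. The CD38 window lies at chr4:15778078-15778377 on the plus strand, the GPRC5D window at chr12:12952121-12952420 and the first of the 2 overlapping MUC1 windows at chr1:155192860-155193159, both on the minus strand. Sequences read 5′ to 3′ along the gene, and capitals mark matches, on either strand, to the TATA box (TATAAA), the GC box (GGGCGG), the CCAAT box, the E-box (CACCTG), the AP-1 motif (TGANTCA) or the interferon response motif, a pair of GAAA with 2 bases between them.
CD38: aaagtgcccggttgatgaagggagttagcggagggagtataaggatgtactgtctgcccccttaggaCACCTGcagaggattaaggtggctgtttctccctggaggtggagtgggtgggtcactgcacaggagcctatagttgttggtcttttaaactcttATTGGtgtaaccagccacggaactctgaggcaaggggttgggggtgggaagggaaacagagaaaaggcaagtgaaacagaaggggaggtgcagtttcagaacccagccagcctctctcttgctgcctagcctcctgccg
GPRC5D: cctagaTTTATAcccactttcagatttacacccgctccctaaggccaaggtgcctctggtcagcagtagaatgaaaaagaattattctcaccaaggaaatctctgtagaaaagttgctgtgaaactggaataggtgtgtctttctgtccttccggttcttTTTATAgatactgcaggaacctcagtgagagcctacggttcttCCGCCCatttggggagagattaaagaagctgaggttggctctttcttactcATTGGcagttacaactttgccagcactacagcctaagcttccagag
MUC1: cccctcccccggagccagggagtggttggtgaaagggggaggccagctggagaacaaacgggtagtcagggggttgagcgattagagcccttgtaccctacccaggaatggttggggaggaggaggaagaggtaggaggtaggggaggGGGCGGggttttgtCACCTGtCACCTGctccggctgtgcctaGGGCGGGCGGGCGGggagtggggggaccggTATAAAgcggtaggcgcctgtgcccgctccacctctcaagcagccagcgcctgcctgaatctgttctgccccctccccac
The windows differed in composition, with 54.0% G and C at CD38, 45.0% at GPRC5D and 65.7% at MUC1, against a median of 58.7% over all 35116 windows. MUC1 held 1 match to the TATA box, 4 to the GC box, of which those in the run before the TATA box overlap, and 2 to the E-box. GPRC5D held 2 matches to the TATA box, 1 to the GC box and 1 to the CCAAT box. CD38 held 1 match to the E-box and 1 to the CCAAT box. Of all windows, 11.5% held the TATA box, 45.0% the GC box, 34.6% the CCAAT box, 20.6% the E-box, 7.71% the AP-1 motif and 3.57% the interferon response motif. The last 2 had no match in these 3 windows, and none of the 6 motifs was found in all 3. These matches describe the letters only, and no binding was measured.

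The question put to the resistant cells was which surface genes changed with proteasome inhibitor resistance. A gene was called in a comparison when the adjusted p of limma, a linear model fitted over the 13089 genes that averaged 1 FPKM or more in some group, was under 0.05 and the log2-fold change was at least 1 in size. Fold changes are differences of log2(FPKM + 1), a scale that understates the change of genes near 0. All 7 genes were tested. In AMO1 BtzR, CD38, SDC1, GPRC5D, FCRL5 and NCAM1 were called lower than in AMO1 WT, 5 of 7, where 4.57% of all tested genes were called lower and 9.18% called in either direction. In RPMI-8226 BtzR, CD38, GPRC5D, NCAM1, CADM1 and MUC1 were called lower, again 5 of 7, with a background of 7.92% lower and 13.8% in either direction. L363 BtzR had 1 of 7 called, GPRC5D, which was lower (background 1.05% lower, 2.06% in all). In ARH-77 BtzR, 1 of 7 was called, CD38, also lower (background 0.649% lower, 1.60% in all). L363 CfzR had 0 of 7 called by limma (background 1.93%). There GPRC5D and CADM1 had an adjusted p under 0.05 with a change under the fold threshold, and 3 of 7 had an unadjusted p under 0.05. None of the 7 was called higher in these 5 comparisons, where 4.61% (AMO1 BtzR), 5.91% (RPMI-8226 BtzR), 1.02% (L363 BtzR), 0.955% (ARH-77 BtzR) and 1.11% (L363 CfzR) of all genes were. In L363 CfzR 0.825% were called lower. That 2 libraries lay wholly above or below the other 2 was common, since it held in a given direction for 17% to 41.3% of all tested genes in these comparisons.

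**Figure D1:**
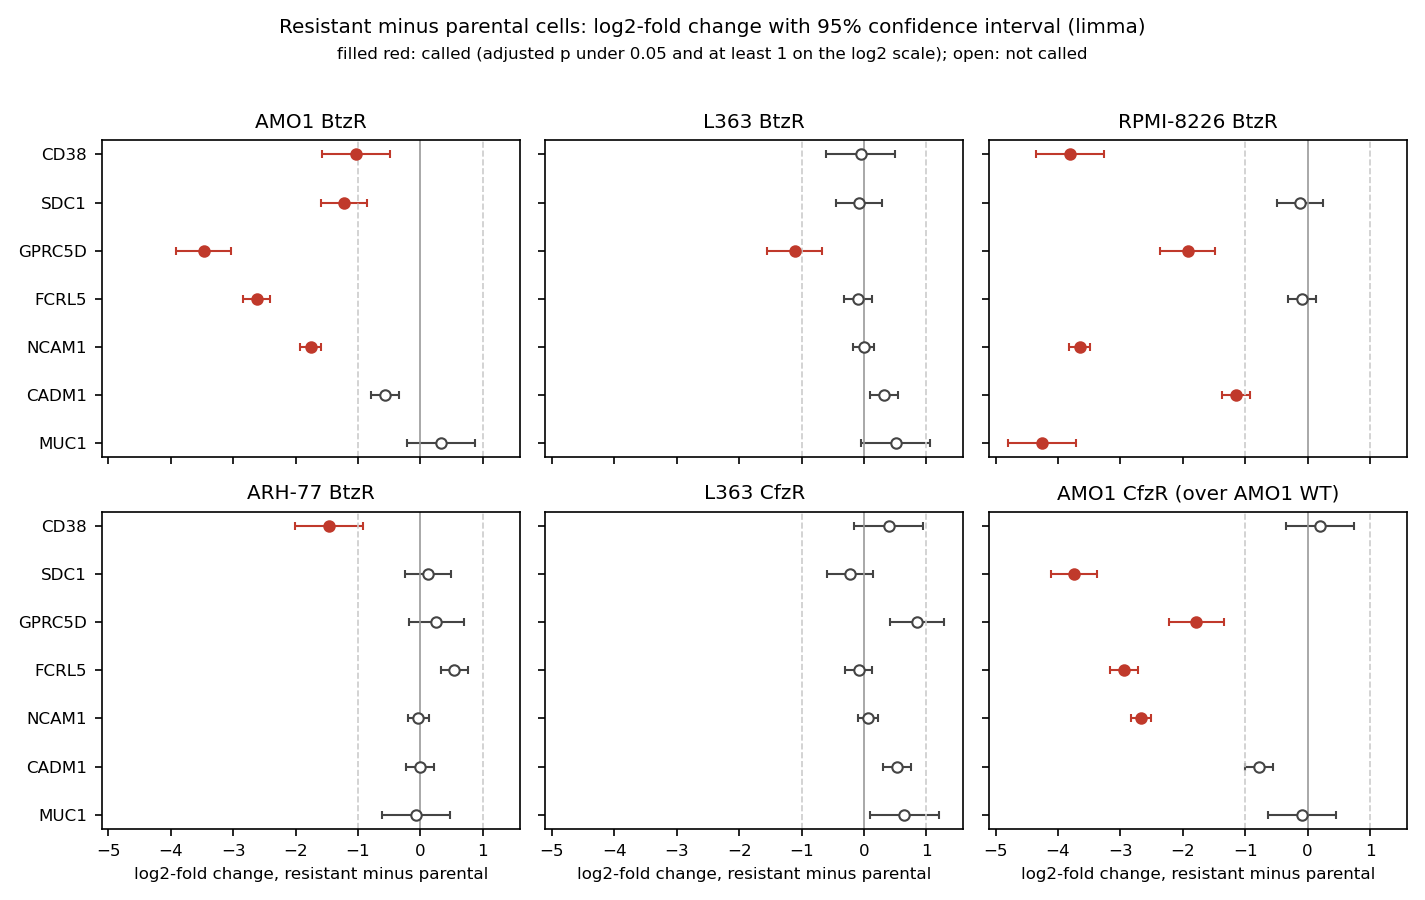
Log2-fold change (x axis, difference of log2(FPKM + 1), resistant minus parental) of the 7 genes (y axis) in 6 comparisons of 2 against 2 libraries, with 95% confidence intervals from limma. Filled red points are called, and they all lie left of 0. There are 5 in AMO1 BtzR, 5 in RPMI-8226 BtzR, 1 in L363 BtzR (GPRC5D) and 1 in ARH-77 BtzR (CD38). The libraries labelled AMO1 CfzR have 4 against AMO1 WT, and L363 CfzR has 0.

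The median log2-fold change of the 7 genes was -1.22 in AMO1 BtzR and -1.92 in RPMI-8226 BtzR. It was -0.06 in L363 BtzR, 0.39 in L363 CfzR and close to 0 in ARH-77 BtzR. Over all tested genes, the median stayed within 0.1 of 0 in each of these comparisons. GPRC5D was the only gene of the 7 called lower in all 3 bortezomib resistant myeloma lines, and CD38 was called lower in all bortezomib resistant lines but L363. A moderated F test asked whether the change with bortezomib resistance was the same in the 4 lines. It gave an adjusted p under 0.05 for 7 of 7 genes, but also for 71.1% of all tested genes, so a difference between lines was the usual outcome. Markers of the plasma cell state were not level in RPMI-8226 BtzR, where 5 of 10 were called lower (background 7.92% lower). These were JCHAIN, TNFRSF17, DERL3, FKBP11 and CD27. The summed level of all 10 was 3916 and 3577 FPKM in RPMI-8226 WT and 1951 and 1681 FPKM in RPMI-8226 BtzR. In AMO1 BtzR 1 of 10 was called lower, FKBP11, a chaperone of the secretory pathway (background 4.57% lower). There 5 had an adjusted and 8 an unadjusted p under 0.05, and the median log2-fold change was -0.25. The summed level of the 10 was 5476 and 4408 FPKM in AMO1 WT and 3613 and 4093 FPKM in AMO1 BtzR. In ARH-77 BtzR 0 of 10 were called by limma, with 2 at an adjusted and 6 at an unadjusted p under 0.05. L363 BtzR and L363 CfzR also had 0 of 10 called, with 2 and 3 at an adjusted and 4 each at an unadjusted p under 0.05. B cell markers were read as well. In RPMI-8226 BtzR 4 of 12 were called lower, CD79B, FCER2, BLK and CR2 (background 7.92% lower). The summed level of the 12 was 45.4 and 44.8 FPKM in WT and 16.2 and 7.77 FPKM in BtzR. In AMO1 BtzR 2 of 12 were called lower, CD79B and FCER2 (background 4.57% lower), with sums of 74.2 and 71.1 FPKM in WT and 39.5 and 39.9 FPKM in BtzR. L363 BtzR and ARH-77 BtzR each had 1 of 12 called higher and 0 lower (background 1.02% and 0.955% higher). The sums were higher there, at 25.34 and 20.18 FPKM against 14.65 and 12.92 FPKM in L363 WT. In ARH-77 they were 992 and 1043 FPKM against 778 and 836 FPKM in WT. L363 CfzR had 0 of 12 called, with sums of 23.9 and 26.6 FPKM. The part of these markers in the results for the 7 genes was not tested.

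**Figure D2:**
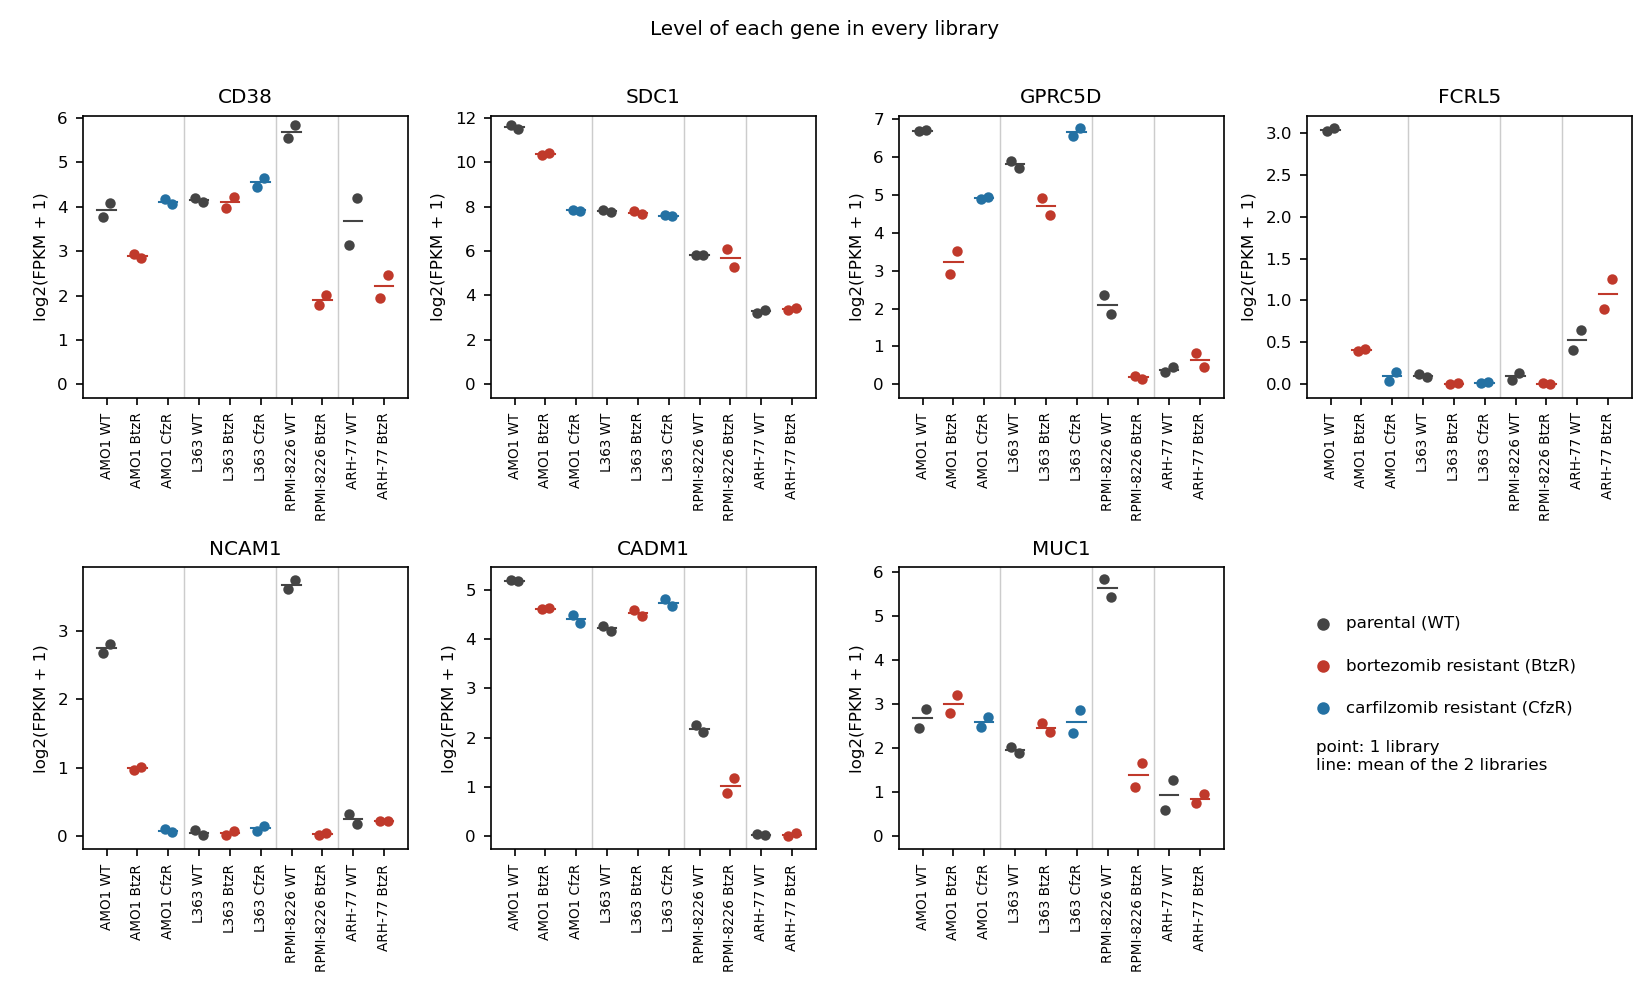
Level of each of the 7 genes, as log2(FPKM + 1) on a y axis of its own, in the 20 libraries grouped by line and resistance (x axis). Each point is 1 library and each line the mean of the 2 libraries of a group. RPMI-8226 WT stands above every other group for CD38, NCAM1 and MUC1, and AMO1 WT for SDC1, FCRL5 and CADM1.

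CD38 RNA was highest in RPMI-8226 WT, at 45.6 and 56.7 FPKM, and lowest in its bortezomib resistant derivative, at 2.43 and 3.02 FPKM. The drop to 5.33% of the parental mean was a log2-fold change of -3.80 ± 0.26 (SE, n = 2 against 2, limma adjusted p = 9.5e-09). In AMO1 the parental libraries were at 12.6 and 15.9 FPKM and the BtzR libraries at 6.62 and 6.16 FPKM. The groups did not overlap, and the log2-fold change was -1.04 ± 0.26 (adjusted p = 0.00367), just past the fold threshold. Without AMO1 WT replicate 2 it was -0.88, and without AMO1 BtzR replicate 2 it was -0.99, neither of which was called. Of the 10 genes nearest to CD38 on its chromosome, 6 were tested. In AMO1 BtzR 0 of them were called, and their median log2-fold change was -0.47. CC2D2A, FBXL5, TAPT1 and QDPR were lower there at a limma adjusted p under 0.05, by -0.66, -0.47, -0.48 and -0.58. FAM200B (-0.04) and LDB2 (-0.12) were not. In RPMI-8226 BtzR the median was 0.24 and 0 were called as well, with FAM200B, at 0.74, having an adjusted p under 0.05. The part of these neighbours in the CD38 result was not tested. In ARH-77 the parental replicates themselves were far apart, at 7.85 and 17.4 FPKM, while both BtzR libraries were lower, at 2.86 and 4.53 FPKM. The log2-fold change was -1.46 ± 0.26 (adjusted p = 0.00121). It was -0.94 without ARH-77 WT replicate 2, and when only the ARH-77 libraries set the spread the adjusted p was 0.113, so the call was lost in both. NKG7, a granule protein of cytotoxic lymphocytes, was called higher in ARH-77 BtzR, at 73.8 and 45.7 FPKM in WT and 177 and 124 FPKM in BtzR. It was the 1 of 7 tested T and NK cell markers called (background 0.955% higher). The median log2-fold change of those 7 was -0.08. The summed level of the 10 markers on that list was 57.5 to 82.1 FPKM in WT and 135 to 187 FPKM in BtzR, most of it NKG7. Of the defining T cell markers, CD3D was listed at 0 in both WT libraries and was at 1.11 and 0.80 FPKM in BtzR, CD3E was at 1.03 and 2.25 FPKM against 1.2 and 1.4 FPKM in BtzR, and CD3G at 0.56 and 0.58 FPKM against 0.53 and 0.44 FPKM. The part of these markers in the CD38 result was not tested.

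L363 showed no such loss of CD38. Parental L363 was at 17.4 and 16.3 FPKM, L363 BtzR at 14.8 and 17.6 FPKM and L363 CfzR at 20.8 and 24.2 FPKM. L363 BtzR overlapped with L363 WT, and the interval of its log2-fold change ran from -0.61 to 0.49. L363 CfzR lay above both without overlap, but the difference from WT, 0.39 ± 0.26, had an adjusted p of 0.499. In the order of group means, RPMI-8226 WT and L363 CfzR stood apart from the groups below them. L363 WT, the libraries labelled AMO1 CfzR, L363 BtzR, AMO1 WT and ARH-77 WT followed at 16.8 to 12.6 FPKM, each overlapping with its neighbour. AMO1 BtzR, at 6.39 FPKM, stood apart from both its neighbours, while ARH-77 BtzR and RPMI-8226 BtzR overlapped.

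Other genes of NAD metabolism were read beside CD38. A list of 19 genes holds ectoenzymes, NAD synthesis enzymes, sirtuins and PARPs, and 15 of them were tested. In AMO1 BtzR 0 were called (background 9.18%), with 4 at an adjusted and 5 at an unadjusted p under 0.05. In RPMI-8226 BtzR 1 was called (background 13.8%). That gene was NT5E, the ectonucleotidase CD73, higher at 4.86 FPKM against 0.60 FPKM (log2-fold change 1.86). In ARH-77 BtzR 0 of 15 were called by limma, with 2 at an adjusted and 6 at an unadjusted p under 0.05. BST1, the family relative of CD38, had no group mean above 0.60 FPKM. Among 13 transcription factors and chromatin regulators linked to CD38 in the literature on its regulation, 1 was called lower in RPMI-8226 BtzR. That share is near the background of 7.92% lower. This was SPI1, the factor PU.1 of myeloid and B cells, which stood at 20.3 and 22.5 FPKM in WT but 0.24 and 0.08 FPKM in BtzR, a change of -4.27 on the log2 scale. In AMO1 BtzR 1 of 13 was called higher (background 4.61% higher), the retinoid receptor RXRA, at 8.32 FPKM against 2.76 FPKM (log2-fold change 1.31).

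SDC1 had the highest mean FPKM of the 7 genes in every myeloma group, and in RPMI-8226 WT the means of CD38 and MUC1 were close to it. AMO1 WT reached 3266 and 2883 FPKM, which placed SDC1 at rank 6 of all genes by mean level. AMO1 BtzR held 1276 and 1356 FPKM, or 42.8% of the parental level and rank 54. The groups were far apart, and the log2-fold change was -1.22 ± 0.17 (adjusted p = 3.6e-05). So SDC1 was called lower in AMO1 BtzR and still stood above every other line there. Of the 10 genes nearest to SDC1 on its chromosome, 7 were tested. In AMO1 BtzR 1 was called lower and 0 higher (background 4.57% lower), with a median log2-fold change of -0.32. The gene called was WDR35, at 114 FPKM in WT and 39.4 FPKM in BtzR (-1.51). WDR35 and LAPTM4A were also higher in AMO1 WT than in L363 WT (2.19 FPKM, and 1077 against 43.1 FPKM), and RHOB lower. The part of these neighbours was not tested. L363 WT was at 231 and 217 FPKM, L363 BtzR at 221 and 202 FPKM and L363 CfzR at 195 and 188 FPKM. Neither derivative differed from L363 WT by the test, with intervals of -0.45 to 0.28 for BtzR and -0.59 to 0.14 for CfzR. RPMI-8226 WT was at 56.3 and 54.9 FPKM, and its BtzR libraries lay on either side, at 67.8 and 38.2 FPKM. The difference was -0.12 ± 0.17 (adjusted p = 0.584). Its sign rested on 1 library, since it was 0.28 without RPMI-8226 BtzR replicate 2 and -0.53 without RPMI-8226 BtzR replicate 1. ARH-77 held the lowest levels, 8.40 and 9.09 FPKM in WT and 9.29 and 9.90 FPKM in BtzR, a difference of 0.12 (adjusted p = 0.741).

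Some other proteoglycan core proteins rose in AMO1 BtzR, where SDC1 fell. Of 8 tested core proteins besides SDC1, 3 were called higher and 1 lower (background 4.61% higher, 4.57% lower). Their list had a median log2-fold change of 0.64. GPC1, a glypican anchored by GPI, was at 1.21 and 0.76 FPKM in AMO1 WT and 10.9 and 11.7 FPKM in AMO1 BtzR (log2-fold change 2.64). SDC4 was at 3.41 and 2.33 FPKM against 10.2 and 9.29 FPKM in BtzR (1.49), and SDC3 at 0.15 and 0.17 FPKM against 3.14 and 2.57 FPKM (1.73). The WT and BtzR libraries did not overlap for any of these genes, and each remained far below SDC1 in level. SRGN, the intracellular granule proteoglycan serglycin, was called lower in AMO1 BtzR (231 to 99.7 FPKM, a log2-fold change of -1.2) and in RPMI-8226 BtzR (253 to 53.0 FPKM, -2.23). In RPMI-8226 BtzR, GPC6 and AGRN were called higher and HSPG2 lower beside it (background 5.91% higher, 7.92% lower). SDC2 had no group mean over 1 FPKM and was not tested.

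Heparan sulfate is the sugar chain of SDC1. Of 23 tested enzymes that build and edit it, 2 were higher and 1 lower in AMO1 BtzR, where 9.18% of all genes were called, and 0 higher and 2 lower in RPMI-8226 BtzR, where 13.8% were. SULF2, which removes sulfate from heparan sulfate outside the cell, was at 0.34 and 0.55 FPKM in AMO1 WT and at 13.9 and 18.3 FPKM in AMO1 BtzR. It went the other way in RPMI-8226, from 7.33 and 8.77 FPKM to 0.36 and 0.32 FPKM. The log2-fold changes were 3.56 and -2.75. NDST1 was higher and the xylosyltransferase XYLT2 lower in AMO1 BtzR, and XYLT1 was lower in RPMI-8226 BtzR. Of 16 tested genes for shedding and trafficking of syndecans, 0 were called in AMO1 BtzR by limma. There 7 had an adjusted and 8 an unadjusted p under 0.05. In RPMI-8226 BtzR the metalloproteinase inhibitors TIMP1 and TIMP2 were called higher and the sheddase ADAM8 lower (background 5.91% higher, 7.92% lower). TIMP1 was at 6.05 and 4.87 FPKM in RPMI-8226 WT and 83.6 and 61.1 FPKM in RPMI-8226 BtzR (log2-fold change 3.49). ADAM8 was also called lower in L363 BtzR (background 1.05% lower) and TIMP1 higher in L363 CfzR (background 1.11% higher), each as the 1 gene of the list called there.

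GPRC5D fell in each bortezomib resistant myeloma line. In AMO1 it was at 102 and 104 FPKM in WT and at 6.58 and 10.6 FPKM in BtzR, 8.33% of the parental level. The log2-fold change was -3.47 ± 0.21 (adjusted p = 6.0e-09). In RPMI-8226, where the parental level was low at 4.16 and 2.60 FPKM, the BtzR libraries were at 0.17 and 0.11 FPKM (log2-fold change -1.92 ± 0.21, adjusted p = 1.7e-06). L363 WT was at 59.1 and 51.4 FPKM and L363 BtzR at 29.2 and 21.4 FPKM, without overlap (log2-fold change -1.11 ± 0.21, adjusted p = 0.00212). Without L363 BtzR replicate 2 that change was -0.89 and was not called. L363 CfzR lay on the other side of its parent, at 92.8 and 108 FPKM. The difference of 0.85 ± 0.21 had an adjusted p of 0.0161, under the fold threshold. Set against each other, L363 CfzR was above L363 BtzR by 1.96 ± 0.21 (adjusted p = 1.5e-05). GPRC5D was the 1 of 7 genes called between the L363 derivatives, where 0.94% of all genes were called higher in CfzR, 0.535% lower and 1.47% in either direction. ARH-77 had at most 0.77 FPKM in any library. Among the 10 genes nearest to GPRC5D on its chromosome, 7 were tested. In AMO1 BtzR, L363 BtzR and RPMI-8226 BtzR 0 of them were called, with median log2-fold changes of 0.16, -0.12 and -0.01.

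The GPRC5D level of AMO1 WT overlapped with that of L363 CfzR, and that of the libraries labelled AMO1 CfzR with L363 BtzR. All other neighbours among the myeloma groups were apart, in the order L363 CfzR, L363 WT, libraries labelled AMO1 CfzR, and then from L363 BtzR to AMO1 BtzR to RPMI-8226 WT. Its relatives were at low levels. GPRC5A, GPRC5B and GPRC5C stayed under 0.5 FPKM in the mean of every myeloma group, and GPRC5C, the 1 relative that was tested, was at 1.00 and 1.41 FPKM in ARH-77 WT and 2.03 and 2.12 FPKM in ARH-77 BtzR (log2-fold change 0.49, under the fold threshold).

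FCRL5 was present at some level in AMO1 WT alone among the parental myeloma lines, at 7.13 and 7.29 FPKM. AMO1 BtzR kept 0.32 and 0.34 FPKM, 4.58% of it (log2-fold change -2.63 ± 0.10, adjusted p = 7.2e-11). In L363, RPMI-8226 and their derivatives no library was above 0.10 FPKM, and 1 library each of L363 BtzR and RPMI-8226 BtzR was listed at 0. ARH-77 WT was at 0.33 and 0.57 FPKM and ARH-77 BtzR at 0.86 and 1.39 FPKM. This difference of 0.55 ± 0.10 had an adjusted p of 0.00201, under the fold threshold. With a pseudocount of 0.1 in place of 1 it was 1.16 and FCRL5 was called. These levels are low, and ARH-77 BtzR, ARH-77 WT and AMO1 BtzR ranked next to AMO1 WT in that order, the last 2 of them overlapping. Among the 10 genes nearest to FCRL5 on its chromosome, 5 were tested. In AMO1 BtzR 1 was called higher and 0 lower (background 4.61% higher, 4.57% lower), with a median log2-fold change of 0.58.

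Relatives of FCRL5 belonged mainly to ARH-77. FCRLA, an intracellular family member of B cells, was at 38.5 and 59.6 FPKM in ARH-77 WT, at 2.05 and 2.63 FPKM in AMO1 WT and at 1.97 and 1.83 FPKM in RPMI-8226 WT. It was the 1 of 5 tested relatives called lower in AMO1 BtzR, with 0.36 and 0.57 FPKM, and also in RPMI-8226 BtzR, with 0 and 0.07 FPKM. The background there was 4.57% and 7.92% lower. FCRL4 was called higher in ARH-77 BtzR, at 8.40 and 11.7 FPKM against 5.10 and 2.30 FPKM in WT (log2-fold change 1.28). Signalling proteins that act with FCRL5 and the B cell receptor were read beside it. Of 10 partners tested, 3 were called lower and 1 higher in AMO1 BtzR (background 4.57% lower, 4.61% higher). In RPMI-8226 BtzR 6 were lower and 0 higher (background 7.92% lower, 5.91% higher). The medians were -0.49 and -1.61 on the log2 scale. The kinase BTK was at 16.2 and 23.0 FPKM in AMO1 WT and 0.08 and 0.08 FPKM in AMO1 BtzR, and at 40.6 and 36.5 FPKM in RPMI-8226 WT and 0.06 and 0.04 FPKM in RPMI-8226 BtzR. PTPN6, the phosphatase SHP-1, was at 127 and 159 FPKM in AMO1 WT and 8.80 and 10.5 FPKM in AMO1 BtzR. SYK, from 18.7 to 3.85 FPKM (-2.02), was lower in RPMI-8226 BtzR. The adaptor BLNK was the partner called higher in AMO1 BtzR (4.33 to 10.5 FPKM, 1.16). In ARH-77 BtzR 0 of 10 were called by limma, with 1 at an adjusted and 1 at an unadjusted p under 0.05.

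NCAM1 was expressed in a pair of the parental lines. RPMI-8226 WT was at 11.2 and 12.4 FPKM and AMO1 WT at 5.44 and 6.02 FPKM. RPMI-8226 BtzR was at 0.01 and 0.03 FPKM, so that nearly all of the signal was gone, 0.169% of the parental mean remaining (log2-fold change -3.65 ± 0.08, adjusted p = 2.1e-14). AMO1 BtzR kept 0.95 and 1.02 FPKM, or 17.2% (-1.76 ± 0.08, adjusted p = 2.5e-10). L363 libraries were at 0.11 FPKM or less and ARH-77 libraries at 0.25 FPKM or less in both states, and no change was called there. Among the groups, RPMI-8226 WT, AMO1 WT and AMO1 BtzR each stood apart from the next, and below ARH-77 the groups from L363 CfzR to RPMI-8226 BtzR overlapped in a chain. Among the 10 genes nearest to NCAM1 on its chromosome, 5 were tested. In AMO1 BtzR 2 were called lower and 0 higher (background 4.57% lower), with a median log2-fold change of -0.11. In RPMI-8226 BtzR 1 was lower and 0 higher (background 7.92% lower), with a median of -0.12. The part of these neighbours in the NCAM1 result was not tested.

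NCAM2, the closest relative, was expressed more widely. It was at 10.3 and 15.2 FPKM in RPMI-8226 WT and 1.45 and 2.37 FPKM in RPMI-8226 BtzR, and at 4.41 and 5.14 FPKM in L363 WT against 0.28 and 0.34 FPKM in L363 BtzR and 0.97 and 1.10 FPKM in L363 CfzR. ARH-77 went from 2.82 and 6.22 FPKM to 1.08 and 1.36 FPKM. NCAM2 was called lower in all these comparisons, with log2-fold changes of -2.23, -2.14, -1.50 and -1.25. In AMO1 BtzR it was at 1.07 and 0.87 FPKM against 1.86 and 2.93 FPKM in WT, a change of -0.77 (adjusted p = 0.0185) under the fold threshold. These comparisons share the L363 WT libraries where both L363 derivatives are set against them. NRCAM, an adhesion molecule of the L1 family, moved the other way in RPMI-8226, from 4.02 and 4.16 FPKM to 49.98 and 43.32 FPKM (log2-fold change 3.22). With it, the receptor FGFR1 and the kinase FYN, which signal with NCAM1, were called higher there. So of 13 tested genes for NCAM relatives, partners and polysialylation 3 were higher and 1 lower (background 5.91% higher, 7.92% lower). In AMO1 BtzR 1 of 13 was called (background 9.18%), L1CAM, higher at 3.52 FPKM against 0.62 FPKM (1.48).

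CADM1 was at 35.7 and 35.1 FPKM in AMO1 WT and 23.3 and 23.8 FPKM in AMO1 BtzR, which is 66.5% of it. The libraries did not overlap and agreed closely within groups, and the change of -0.57 ± 0.10 had an adjusted p of 4.0e-04 but stayed under the fold threshold. RPMI-8226 WT was far lower than AMO1 WT, at 3.74 and 3.32 FPKM, and RPMI-8226 BtzR was at 0.83 and 1.26 FPKM. That drop was called (log2-fold change -1.15 ± 0.10, adjusted p = 2.9e-07). L363 differed in sign. From 18.4 and 16.9 FPKM in WT, BtzR lay at 23.2 and 21.1 FPKM (0.31 ± 0.10, adjusted p = 0.0736) and CfzR at 27.1 and 24.5 FPKM (0.52 ± 0.10, adjusted p = 0.00446). Both derivatives lay above WT without overlap, and neither was called. ARH-77 libraries were at 0.04 FPKM or less, and 1 ARH-77 BtzR library was listed at 0. CADM1 was thus near 0 in the B-lymphoblastoid line and above it in every myeloma library. Among the 10 genes nearest to CADM1 on its chromosome, 5 were tested. In RPMI-8226 BtzR 0 were called, with a median log2-fold change of -0.11. In AMO1 BtzR 1 was lower and 0 higher (background 4.57% lower), with a median of -0.51. The part of these neighbours in the CADM1 result was not tested.

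Relatives and ligands of CADM1 include the nectins and their receptors. NECTIN2 was higher in AMO1 BtzR (1.05 to 6.92 FPKM, log2-fold change 1.96), in RPMI-8226 BtzR (0.49 to 3.24 FPKM, 1.49) and in L363 CfzR (2.48 to 6.35 FPKM, 1.07). NECTIN3 was higher in AMO1 BtzR, and PVR, the ligand CD155 of the lymphocyte receptors CD226 and TIGIT, in RPMI-8226 BtzR. NECTIN1 was lower in RPMI-8226 BtzR (28.7 to 9.56 FPKM, -1.49) and in L363 BtzR (7.68 to 2.74 FPKM, -1.23). Counted over the 10 tested genes of the list, 2 were higher and 0 lower in AMO1 BtzR (background 4.61% higher, 4.57% lower). In RPMI-8226 BtzR 2 were higher and 1 lower (background 5.91% higher, 7.92% lower). CD226 was called higher in ARH-77 BtzR (1.40 to 5.32 FPKM, 1.41). CADM2, CADM3 and CADM4 had group means of at most 2.19 FPKM.

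MUC1 stood out in RPMI-8226. Parental RPMI-8226 was at 56.7 and 42.3 FPKM, and its BtzR derivative at 1.17 and 2.15 FPKM, 3.35% of the parental level. The log2-fold change was -4.26 ± 0.26 (adjusted p = 2.4e-09). In the other myeloma groups MUC1 was between 2.70 and 8.30 FPKM. AMO1 BtzR, at 5.96 and 8.30 FPKM, overlapped with AMO1 WT, at 4.53 and 6.44 FPKM, and the interval of the difference ran from -0.22 to 0.87. L363 WT was the lowest of these, at 3.08 and 2.70 FPKM. L363 BtzR, at 4.93 and 4.13 FPKM, and L363 CfzR, at 4.08 and 6.29 FPKM, lay above it without overlap, by 0.51 ± 0.26 (adjusted p = 0.258) and 0.65 ± 0.26 (adjusted p = 0.166). In the order of means, RPMI-8226 WT was apart from all others, and the groups from AMO1 BtzR to L363 BtzR overlapped each with the next. ARH-77 was at 0.50 and 1.41 FPKM in WT and 0.69 and 0.93 FPKM in BtzR. The 10 genes nearest to MUC1 on its chromosome were all tested. In RPMI-8226 BtzR 3 were called lower and 0 higher (background 7.92% lower), with a median log2-fold change of -0.28. In AMO1 BtzR 2 were higher and 0 lower (background 4.61% higher), with a median of 0.15. The part of these neighbours in the MUC1 result was not tested.

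Of 6 tested mucins and mucin-domain proteins besides MUC1, 2 were called lower in RPMI-8226 BtzR and 0 higher (background 7.92% lower, 5.91% higher). MUC20 was at 19.2 and 9.75 FPKM in RPMI-8226 WT and 1.34 and 0.60 FPKM in RPMI-8226 BtzR (log2-fold change -2.93). SELPLG, the selectin ligand PSGL-1, was at 83.9 and 80.4 FPKM in RPMI-8226 WT and 7.52 and 9.67 FPKM in RPMI-8226 BtzR (-3.12). SELPLG was called lower in L363 BtzR as well, at 37.5 and 32.2 FPKM against 72.3 and 71.0 FPKM (-1.02), together with SPN, the leukosialin CD43 (11.3 to 1.54 FPKM, -2.28). In AMO1 BtzR 0 of 6 were called by limma (background 9.18%), with 2 at an adjusted and 3 at an unadjusted p under 0.05. MUC15 was called higher in L363 CfzR (0.02 to 1.70 FPKM, 1.40). Among 17 tested enzymes that build O-linked sugar chains, 1 was higher and 2 lower in AMO1 BtzR (background 4.61% higher, 4.57% lower). In RPMI-8226 BtzR 2 were higher and 3 lower, beside the background given above. The initiating transferase GALNT3 was lower in both, from 13.5 to 0.48 FPKM in AMO1 (-3.29) and from 2.92 and 3.51 FPKM to 1.59 and 0.70 FPKM in RPMI-8226, where the fold was just past the threshold. C1GALT1, which extends the core of the chain, was higher in RPMI-8226 BtzR (8.49 to 21.5 FPKM, 1.24), and its chaperone C1GALT1C1 was lower in both L363 derivatives (29.9 to 13.4 FPKM in BtzR, -1.10, and to 13.6 FPKM in CfzR, -1.07). Of 9 tested signalling partners of MUC1, 1 was called in RPMI-8226 BtzR, the receptor ERBB2, which was lower (2.13 to 0.36 FPKM, -1.19, background 7.92% lower). In AMO1 BtzR 1 was called, the junction protein JUP, also lower (2.69 to 0.55 FPKM, -1.21, background 4.57% lower).

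**Figure D3:**
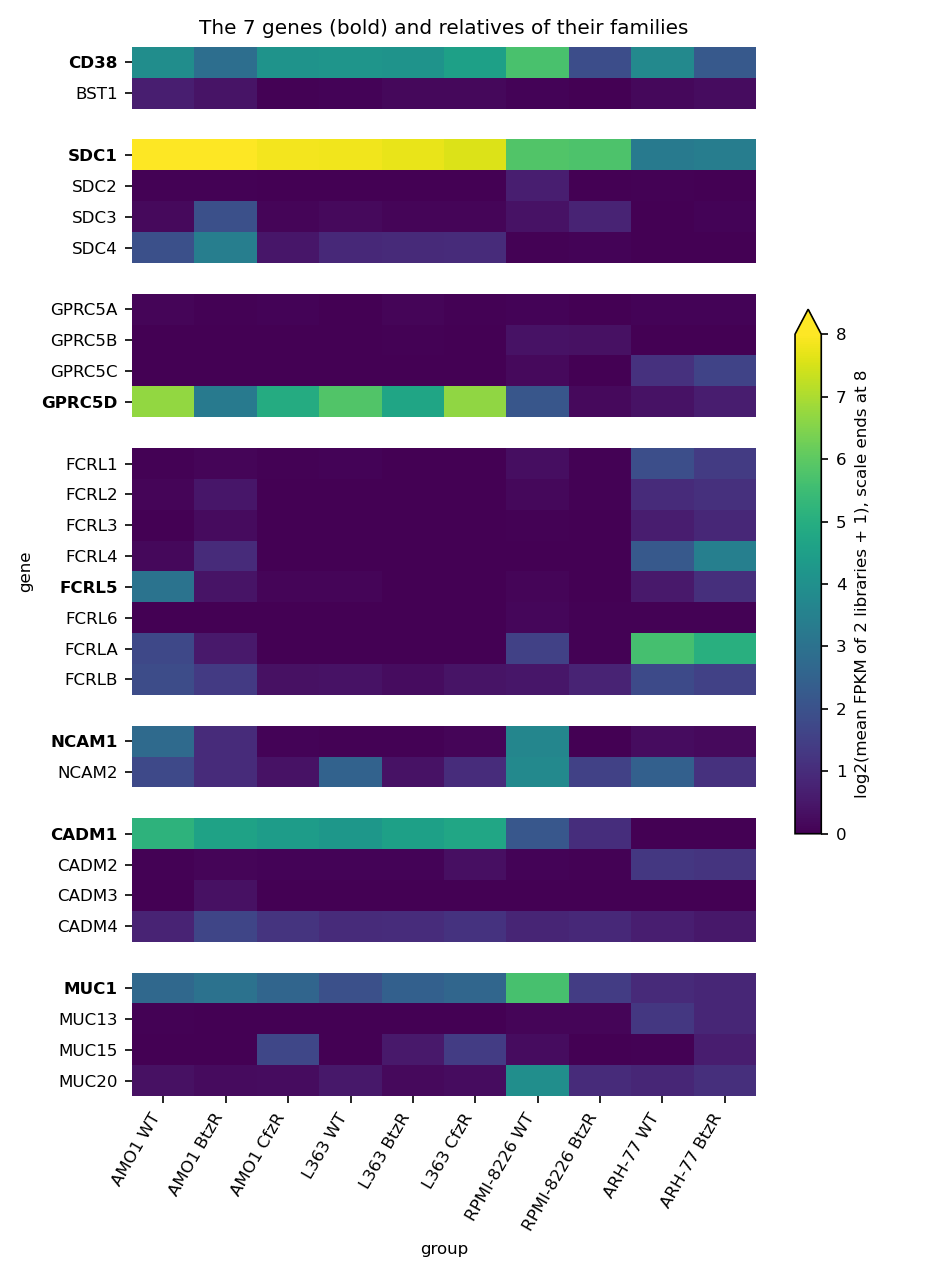
Mean level of the 7 genes (bold) and of relatives from their families (y axis) in the 10 groups (x axis), as log2(mean FPKM of 2 libraries + 1) in colour, with the scale ending at 8, so that SDC1 in AMO1 WT and AMO1 BtzR lies past its end. The relatives of CADM1 drawn are CADM2, CADM3 and CADM4, without the nectins. Among the genes drawn, SDC1, GPRC5D and CADM1 are the brightest of their families in every AMO1 and L363 group, while FCRLA is brightest in ARH-77 and NCAM2 is dimmer in each resistant group than in its parent.

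The libraries labelled AMO1 CfzR gave results that depended on the parent they were set against. Against AMO1 WT, 4 of 7 genes were called lower, SDC1, GPRC5D, FCRL5 and NCAM1, where 9.21% of all tested genes were called lower, 7.88% higher and 17.1% in either direction. SDC1 read 233 and 224 FPKM there and differed by -3.74 ± 0.17 on the log2 scale (adjusted p = 8.3e-11). FCRL5 was at 0.03 and 0.11 FPKM (-2.94) and NCAM1 at 0.07 and 0.04 FPKM (-2.67). GPRC5D was at 28.6 and 29.9 FPKM (-1.78). CD38, at 17.0 and 15.8 FPKM, and MUC1, at 4.58 and 5.56 FPKM, overlapped with AMO1 WT (0.20 and -0.08). CADM1, at 21.4 and 19.1 FPKM, differed by -0.78 (adjusted p = 1.5e-05), under the fold threshold. Against L363 WT, 0 of 7 were called by limma (background 0.856% higher, 0.802% lower, 1.66% in all), and 2 of 7 had an unadjusted p under 0.05. These were GPRC5D, lower by a log2-fold change of -0.89 ± 0.21 (adjusted p = 0.0134), and MUC1 (0.64 ± 0.26, adjusted p = 0.199). SDC1, FCRL5 and NCAM1, all called against AMO1 WT, overlapped with L363 WT, at differences of 0.03, -0.01 and 0.03. Genes of NAD metabolism showed the same dependence on the parent, with 6 of 15 called higher and 1 lower against AMO1 WT. Against L363 WT 0 of 15 were called by limma, with 2 at an adjusted and 3 at an unadjusted p under 0.05. A change with carfilzomib resistance in AMO1 cannot be told apart from the resemblance of these libraries to L363. Leaving them out of the fit changed no call in the other comparisons.

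Between the parental lines the question was how the targets of the myeloma lines differ from those of ARH-77. AMO1 WT had 6 of 7 genes called higher than ARH-77 WT, all but CD38 (background 11.6% higher, 12.7% lower, 24.3% in all). L363 WT had 4 of 7, SDC1, GPRC5D, CADM1 and MUC1 (background 11.4% higher, 13.8% lower, 25.2% in all), and RPMI-8226 WT had 6 of 7, all but FCRL5 (background 13.3% higher, 15.1% lower, 28.4% in all). These comparisons share the ARH-77 WT libraries. SDC1 differed by 8.30 ± 0.17 on the log2 scale in AMO1 WT, by 4.53 in L363 WT and by 2.54 in RPMI-8226 WT. GPRC5D differed by 6.31, 5.42 and 1.72, and CADM1 by 5.16, 4.19 and 2.15, in the same order of lines. The sizes of these differences cannot be ranked across genes, because CADM1 in ARH-77 WT was near 0, and with a pseudocount of 0.01 its difference in AMO1 WT was 10.29 and that of SDC1 8.45. MUC1 in L363 WT was above ARH-77 WT by only 1.03 ± 0.26 (adjusted p = 0.00238), and this was not called without L363 WT replicate 1 (0.96) or without ARH-77 WT replicate 1 (0.69). CD38 did not separate AMO1 or L363 from ARH-77 (0.25, adjusted p = 0.415, and 0.48, adjusted p = 0.110). RPMI-8226 WT was above ARH-77 WT by 2.02 (adjusted p = 4.9e-06). Without ARH-77 WT replicate 2 the L363 difference in CD38 was 1.01 and was called.

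The myeloma lines also differed from each other. AMO1 WT had SDC1, FCRL5 and NCAM1 called higher than L363 WT, by 3.77, 2.93 and 2.70, 3 of 7 where 9.06% of all genes were called higher, 7.55% lower and 16.6% in all. CADM1, at 0.96, was just under the fold threshold and passed it after rescaling to equal sums (1.03) and without L363 WT replicate 1 (1.02). Against RPMI-8226 WT, AMO1 WT had SDC1, GPRC5D, FCRL5 and CADM1 called higher and CD38 and MUC1 lower, 6 of 7 (background 10.9% higher, 11% lower, 21.9% in all). L363 WT had SDC1, GPRC5D and CADM1 called higher and CD38, NCAM1 and MUC1 lower, also 6 of 7 (background 10.6% higher, 11.4% lower, 21.9% in all). CD38 differed by -1.78 and -1.54 from RPMI-8226 WT, and MUC1 by -2.96 and -3.69. The myeloma lines thus carried different members at their highest level, SDC1, GPRC5D, FCRL5 and CADM1 in AMO1 WT, CD38, NCAM1 and MUC1 in RPMI-8226 WT, and none of the 7 in L363 WT.

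Over the 10 group means of log2(FPKM + 1), GPRC5D and CADM1 had a Pearson r of 0.92, SDC1 and CADM1 of 0.90, NCAM1 and MUC1 of 0.77, SDC1 and GPRC5D of 0.76 and CD38 and MUC1 of 0.74. The points share lines and parental libraries, so these are descriptions. Of all tested genes, those with the pattern nearest to CD38 were RAB3D, NT5C3B and IFT140 (r = 0.93, 0.92 and 0.91). TRMT10C, IFNG and TOLLIP were nearest to SDC1 (0.99, 0.98 and 0.98), and AMPD1, HSP90B1 and GHDC to GPRC5D (each 0.96). For FCRL5 they were GPR18, PSD and NOL10 (0.98, 0.97 and 0.97), and for NCAM1, NRP2, GPX7 and CEL (1.00, 0.99 and 0.97). CADM1 was followed most closely by ZNF37A, CLEC2L and DNAJC1 (0.99, 0.98 and 0.98), and MUC1 by ARFGAP2, ANKRD12 and NDUFV2 (0.98, 0.96 and 0.96). IFNG, GPR18 and PSD averaged 1 FPKM or more only in AMO1 WT, at 1.38, 4.62 and 1.68 FPKM, the group where SDC1 and FCRL5 were highest. With 10 points per gene and 13089 genes searched, high values of r arise readily.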

How the data were processed

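RNA was extracted from flash-frozen pellets and libraries were built and sequenced by BGI on a BGISEQ-500 instrument. The deposited table holds FPKM to 2 decimals for 18305 genes in 20 libraries, and every column of values was used. The submitters' processing notes name HISAT2 2.0.4, Bowtie2 2.2.5 and RSEM 1.2.12, and the genome build was not given in the sources used here. Groups were taken from the sample titles, with 2 biological replicates in each of 10 groups, so that p-values measure the spread between cultures of the same cells. Values were tested as log2(FPKM + 1) with limma 3.58.1 in R 4.3.3, with a mean-variance trend, 1 mean per group over all 20 libraries (10 residual degrees of freedom), genes kept only if they averaged 1 FPKM or more in some group (13089 genes), and Benjamini-Hochberg adjustment over all of them. A gene was called at an adjusted p under 0.05 and a log2-fold change of at least 1 in size. With 2 against 2 libraries, exact permutation cannot give a two-sided p under 0.333, so none was run. Because FPKM are not counts, no count model was used. The script was tested on simulated data.

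The 7 genes and the gene lists were chosen with earlier results of these data known, so a list's count is not independent evidence. Named beside the 7 genes are, for each list and resistance comparison, the called genes with the greatest change (at most 3 per direction), relatives from the gene families, and the 3 genes with the most similar pattern over the group means. The 10 genes nearest to each of the 7 on the chromosome, in RefSeq order, were also read. Promoter windows came from RefSeq on GRCh38.p14 and found 5 of the 7 genes by symbol. Alternatives were another pseudocount, no filter or one of 5 FPKM, rescaling to equal sums, quantile normalization, no trend, a replicate block, the compared libraries alone, and leaving out libraries.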

Additional observations from a re-analysis of the deposited data

Results flagged for a closer look

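The change with bortezomib resistance differed between the 4 lines for each of the 7 genes in a moderated F test (limma) on line-by-resistance terms. As 71.1% of all tested genes gave an adjusted p under 0.05 in this test, passing it does not set the 7 genes apart. NCAM1 (adjusted p = 3.1e-12) was lower in both libraries of AMO1 BtzR and RPMI-8226 BtzR and near 0 in L363 and ARH-77, where no change could be read. FCRL5 (adjusted p = 5.7e-10) was lower in AMO1 BtzR, with a log2-fold change of 0.55 in ARH-77 BtzR. For MUC1 (adjusted p = 7.7e-08) the log2-fold change was -4.26 in RPMI-8226 and 0.33 in AMO1. GPRC5D (adjusted p = 4.3e-07) was called lower in the 3 myeloma lines, with a log2-fold change of 0.25 in ARH-77. CD38 (adjusted p = 3.7e-06) was called lower in all lines but L363, where the log2-fold change was -0.06. With 1 library left out, the CD38 change shrank to as little as -0.88 in AMO1 and -0.94 in ARH-77. CADM1 (adjusted p = 3.9e-06) was called lower in RPMI-8226, at -1.15, against 0.31 in L363. SDC1 (adjusted p = 7.7e-04) was called lower in AMO1, at -1.22, against -0.12 in RPMI-8226.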

How the results depend on the processing

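No filter, a filter of 5 FPKM, no mean-variance trend and leaving out the libraries labelled AMO1 CfzR moved no call of the 7 genes. A fit with a replicate block also changed no call, with 5 of the 7 genes called in AMO1 BtzR. Deviations of same-numbered libraries correlated at r = 0.12 to 0.24 in 5 of the 6 resistance comparisons and at -0.0055 in AMO1 BtzR against AMO1 WT. No label says what the numbers share. In ARH-77 BtzR, 2 genes were called with a pseudocount of 0.1, CD38 and FCRL5, and 0 when only the ARH-77 libraries were fitted. In L363 BtzR, 2 were called with a pseudocount of 0.01, GPRC5D and FCRL5 (-2.56), though FCRL5 was at 0.09 FPKM or less there. The same pseudocount gave 6 in RPMI-8226 BtzR with FCRL5 (-2.39) added to the 5. Against ARH-77 WT, 6 in L363 WT and 7 in RPMI-8226 WT were called with either of the lower pseudocounts, with FCRL5 lower and, in L363, NCAM1 lower as the additions. NCAM1 was also called between AMO1 WT and RPMI-8226 WT with a pseudocount of 0.1 and after quantile normalization. Leaving out 1 library took some called changes under the fold threshold of 1. GPRC5D in L363 BtzR was at -0.89 without L363 BtzR replicate 2, and CD38 in ARH-77 BtzR at -0.94 without ARH-77 WT replicate 2. CD38 in AMO1 BtzR ranged from -1.19 to -0.88, and MUC1 in L363 WT against ARH-77 WT from 0.69 to 1.37. Quantile normalization turned the sign of SDC1 (0.0068) and NCAM1 (0.013) in L363 BtzR and of FCRL5 (0.025) in the libraries labelled AMO1 CfzR against L363 WT, none of them called. The cause was not tested.

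Leaving out 1 library turned the sign of differences that were not called. CD38 ranged from -0.18 to 0.063 in L363 BtzR, from -0.28 to 0.77 in AMO1 WT against ARH-77 WT, from -0.043 to 1.01 in L363 WT against ARH-77 WT and from -0.091 to 0.011 in the libraries labelled AMO1 CfzR against L363 WT. SDC1 ranged from -0.53 to 0.28 in RPMI-8226 BtzR and from -0.017 to 0.077 in the libraries labelled AMO1 CfzR against L363 WT. MUC1 ranged from -0.42 to 0.27 in ARH-77 BtzR, from -0.30 to 0.13 in the libraries labelled AMO1 CfzR against AMO1 WT and from -0.12 to 0.40 between the L363 derivatives. FCRL5 ranged from -0.062 to 0.046 in the libraries labelled AMO1 CfzR against L363 WT and from -0.033 to 0.048 in L363 WT against RPMI-8226 WT. NCAM1 ranged from -0.11 to 0.038 in ARH-77 BtzR, from -0.042 to 0.028 in L363 BtzR and from -0.0070 to 0.063 in the libraries labelled AMO1 CfzR against L363 WT. CADM1 ranged from -0.028 to 0.028 in ARH-77 BtzR. Without counts, depth limits of levels near 0 could not be given.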
